A study of Mus musculus with 32 samples.

Results

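The angiopoietin and Tie receptor genes described here were 9 of the 55357 genes in the read count table, chosen by symbol. They were the ligands Angpt1, Angpt2 and Angpt4, the receptors Tek and Tie1, the phosphatase Ptprb, and the angiopoietin-like genes Angptl1, Angptl2 and Angptl4. RNA was sequenced from brain arteries of 32 mice, 1 library per mouse, in 4 groups of 8. Notch3-/- mice and their Notch3+/+ littermates were 3 months old, whereas TgNotch3R169C mice and their non-Tg littermates were 12 months old. TgNotch3R169C mice carried both copies of the mouse gene plus a transgene on the X chromosome, a large genomic clone of rat Notch3 with a cysteine-altering mutation of the kind that causes CADASIL. All lines were on a C57BL/6 background, and sex was not among the labels. The question was how transcripts of this ligand and receptor system stood in arteries of Notch3-/- mice and in arteries with the mutant transgene.

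The angiopoietins are secreted ligands of the receptor tyrosine kinase TEK, also called TIE2, which is made mainly by endothelial cells. ANGPT1, released largely by mural and other perivascular cells, activates TEK and keeps vessels quiescent, whereas ANGPT2, stored in endothelial cells, acts as a weaker, context-dependent ligand that loosens vessels for remodeling. ANGPT4 is a less studied ligand of TEK, TIE1 is a related receptor that pairs with TEK, and PTPRB, also called VE-PTP, removes phosphate from TEK. The angiopoietin-like proteins share the domain structure of the ligands but do not bind TEK, and ANGPTL4 is best known as an inhibitor of lipoprotein lipase.

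The 250 bases before the RefSeq start (build GRCm38.p6) are shown for Angpt4, the single member that passed the test in Notch3-/- arteries, and for Tek and Tie1, the receptor pair whose levels moved together across libraries. Entries were found for 5 of the 9 members, the others being Angptl1 and Angptl2. Capitals mark matches on either strand to AGGAAG, the core bound by ETS factors (CTTCCT on the other strand), or to TGGGAA, the core bound by RBPJ, the DNA-binding partner of Notch (TTCCCA on the other strand). The Angpt4 window was chr2:151910957-151911206 on the plus strand, the Tek window chr4:94739039-94739288 on the plus strand and the Tie1 window chr4:118489850-118490099 on the minus strand.
Angpt4: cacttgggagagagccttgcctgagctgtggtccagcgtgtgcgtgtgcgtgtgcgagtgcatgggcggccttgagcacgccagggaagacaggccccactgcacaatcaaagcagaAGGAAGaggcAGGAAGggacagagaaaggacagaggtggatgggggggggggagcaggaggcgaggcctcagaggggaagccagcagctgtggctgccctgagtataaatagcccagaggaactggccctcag
Tek: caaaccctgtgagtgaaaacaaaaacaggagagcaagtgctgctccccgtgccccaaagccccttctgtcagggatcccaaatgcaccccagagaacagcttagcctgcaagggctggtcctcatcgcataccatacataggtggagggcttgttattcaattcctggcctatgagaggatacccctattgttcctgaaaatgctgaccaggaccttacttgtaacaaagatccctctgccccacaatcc
Tie1: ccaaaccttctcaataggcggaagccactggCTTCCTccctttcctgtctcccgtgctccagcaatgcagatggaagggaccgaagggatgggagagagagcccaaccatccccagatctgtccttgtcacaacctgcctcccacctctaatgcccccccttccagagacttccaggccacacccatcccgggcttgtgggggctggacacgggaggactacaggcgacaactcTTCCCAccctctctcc
The Angpt4 window held 2 AGGAAG matches, beginning 133 and 123 bases before the start, and no TGGGAA match. The Tie1 window held 1 AGGAAG match beginning 219 bases before the start and 1 TGGGAA match beginning 16 bases before it. The Tek window held neither of these exact sequences, which does not show that it lacks an ETS site of another form. Of 32851 mouse promoter windows of the same length, 29.5% held AGGAAG and 21.6% held TGGGAA, so single matches are common. The CArG box, bound by serum response factor in smooth muscle genes, was in 1.47% of the windows and in none of the 5 members with an entry.

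Libraries held 20289487 to 54481934 counts. Notch3 itself was at 16.2 ± 1.82 CPM (counts scaled to the effective library size, SD, n = 8) in Notch3-/- and 83.6 ± 12.0 in Notch3+/+ arteries, and at 182 ± 34.5 in TgNotch3R169C and 73.2 ± 8.19 in non-Tg arteries. Reads of the gene thus remained in all 8 Notch3-/- libraries, at 450 to 633 each. The counts are on the mouse build, so the TgNotch3R169C value may hold reads of the rat transgene, whose share was not measured. Endothelial markers were present in every group, their 12 genes summing to 2355 to 3793 CPM per library, so the labelled tissue held the cells that make Tek and Tie1. Smooth muscle markers (8 genes) summed to a median of 2970 CPM in Notch3+/+, 1854 in Notch3-/-, 1711 in non-Tg and 1515 in TgNotch3R169C arteries. Choroid plexus markers exceeded 5000 CPM in 7 libraries (4 of non-Tg, 2 of TgNotch3R169C and 1 of Notch3-/- mice), and pituitary markers did so in 1 Notch3+/+ library. Counts of members called are given with and without these 8 libraries.

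Per kilobase of exon, Ptprb was the most abundant member, with a median of 64.6 CPM per kb over the 32 libraries. The receptors Tie1 and Tek followed at 30.2 and 29.0 CPM per kb, then Angptl2 at 24.9, Angpt2 at 18.2 and Angpt1 at 10.1. Angptl4 stood at 7.39 CPM per kb, Angptl1 at 2.93 and Angpt4 at 0.455. Exon lengths were taken from another annotation than the one counted, so these levels are approximate. The order was firm at the top and among the ligands, since Ptprb was above Tie1, and Angpt2 above Angpt1, in 32 of 32 libraries. It was not firm between Tie1 and Tek, where Tie1 was higher in 25 libraries, or between Tek and Angptl2, where Tek was higher in 22. Levels of Angpt1 differed least among libraries, the highest being 1.63 times the lowest, whereas those of Angptl1 differed most, by 11.6 times.

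**Figure D1:**
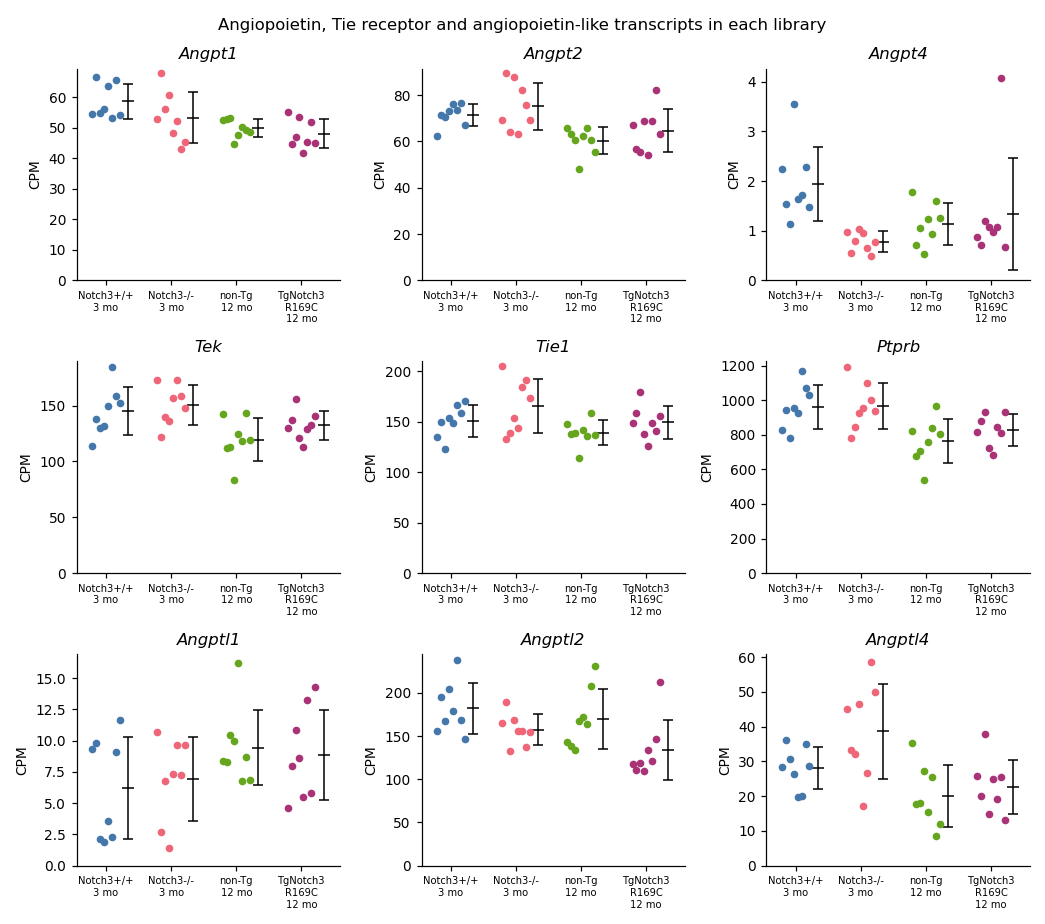
Normalised CPM of the 9 members. Each point is 1 library, and the bar beside each group is the mean with its SD (n = 8). The Notch3-/- points of Angpt4 all lie below the lowest Notch3+/+ point, 1 TgNotch3R169C library stands at 4.07 CPM, and Tek, Tie1 and Ptprb overlap among all 4 groups.

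Angpt4 was the single member called in Notch3-/- arteries, and it was lower there. Its level ran from 0.482 to 1.04 CPM around a median of 0.790 in Notch3-/- mice, and from 1.13 to 3.54 CPM around a median of 1.68 in Notch3+/+ mice. All 8 Notch3-/- libraries lay below the lowest Notch3+/+ library, although the transcript was scarce, with 17 to 38 reads per Notch3-/- library against 42 to 106. Angpt4 fell by 1.30 on the log2 scale (SE 0.228, 95% CI −1.78 to −0.82), to 0.405 of the Notch3+/+ level (edgeR's quasi-likelihood test, adjusted p = 0.00848). In this comparison 1 of the 9 members was called, against 0.649% of the 17714 genes tested, or 0.452% in the lower direction. At an unadjusted p under 0.05 there were 3 of the 9, Angpt4, Angptl2 and Angptl4, against 7.69%. Without the 8 libraries named above Angpt4 was again called, at −1.33. In whole arteries, fewer cells of a type and less RNA per cell cannot be told apart.

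Most smooth muscle markers were lower in the same arteries. Of the 8, 6 were called lower: Myh11, the smooth muscle myosin heavy chain, at a log2 fold change of −1.04, and Cnn1, Lmod1, Acta2, Tagln and Mylk at −0.79, −0.65, −0.63, −0.63 and −0.56. The median over the list was −0.63, against −0.0011 over all genes tested, and 1 of the 8 was higher, at 0.28, without being called. With the mean of the 8 markers as a covariate, the Angpt4 difference was −0.45 and no longer called (edgeR, adjusted p = 0.765). That setting called 16 of the 17714 genes tested, against 115 without the covariate. The list itself differed between the groups, and its part in the Angpt4 result was not otherwise tested. The endothelial list gave no call and a median of 0.08, and with it as the covariate the Angpt4 value was −1.37.

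None of the other ligands or the receptors passed the test in Notch3-/- arteries. Angpt1 ran from 43.0 to 68.1 CPM, median 52.6, in Notch3-/- libraries and from 53.2 to 66.7 CPM, median 55.6, in Notch3+/+ libraries. Of the Notch3-/- libraries, 5 were below the lowest Notch3+/+ library and 1 was above the highest, so the spread was wider and the ranges overlapped (log2 fold change −0.13, SE 0.0852, 95% CI −0.31 to 0.05, edgeR, adjusted p = 0.825). Angpt2 ran from 63.3 to 89.4 CPM, median 72.5, against 62.3 to 76.8 CPM, median 72.2, with 3 libraries above the highest control (0.08, 95% CI −0.08 to 0.23, edgeR, adjusted p = 0.903). Tek averaged 151 ± 17.9 CPM against 145 ± 21.6 (SD, n = 8), and the interval of its log2 difference was −0.13 to 0.25. For Tie1, 4 Notch3-/- libraries were above the highest control, with means of 165 ± 26.8 and 151 ± 15.5 CPM (95% CI −0.06 to 0.33). Ptprb averaged 967 ± 132 and 963 ± 128 CPM (95% CI −0.19 to 0.20).

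Among the angiopoietin-like genes, none was called in Notch3-/- arteries. Angptl4 had the widest difference, 38.7 ± 13.6 CPM (SD, n = 8) against 28.1 ± 6.02, with 4 libraries above the highest control and 1 below the lowest (log2 fold change 0.46, SE 0.208, edgeR, unadjusted p = 0.0418, adjusted p = 0.617). Angptl4 and the targeted Notch3 gene are both on chromosome 17, and the part of linkage in this difference was not tested. Angptl2, a secreted protein of stromal and vascular cells, was at 157 ± 18.0 CPM against 182 ± 29.7 (−0.21, SE 0.0905, edgeR, adjusted p = 0.588). Angptl1 ranged from 1.39 to 10.7 CPM in Notch3-/- and from 1.90 to 11.6 CPM in Notch3+/+ libraries. Its Notch3+/+ libraries fell into 4 at 1.90 to 3.56 CPM and 4 at 9.12 to 11.6 CPM, with none between, and the interval of the group difference ran from −0.80 to 1.12.

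In TgNotch3R169C arteries, 0 of the 9 members were called (edgeR, with 0 also by DESeq2 and by limma voom), against 0.113% of the 17731 genes tested, and the count without the 8 libraries was also 0. At an unadjusted p under 0.05 there was 1 member, Angptl2, against 7.27% of genes. Angpt4 ran from 0.672 to 4.07 CPM, median 1.03, in TgNotch3R169C libraries and from 0.540 to 1.79 CPM, median 1.15, in non-Tg libraries. A single library, TgNotch3R169C replicate 7 with 146 Angpt4 reads, stood above all others of the series, and the remaining 7 lay within the non-Tg range. The log2 fold change was 0.25 (SE 0.367, 95% CI −0.53 to 1.02, edgeR, adjusted p = 0.893) with replicate 7 and −0.26 without it (edgeR, adjusted p = 0.905). The smooth muscle list gave no call in these arteries and had a median of −0.23, with 8 of 8 markers below 0.

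Angptl2 was the member with the smallest unadjusted p in this comparison. It ran from 109 to 213 CPM, median 120, in TgNotch3R169C libraries and from 134 to 231 CPM, median 165, in non-Tg libraries, and 6 of the 8 TgNotch3R169C libraries were below the lowest non-Tg one. The log2 fold change was −0.35 (SE 0.142, edgeR, unadjusted p = 0.0257, adjusted p = 0.655), and it was −0.57 (edgeR, adjusted p = 0.365) without the libraries rich in choroid plexus markers. Angpt1 averaged 48.1 ± 4.83 CPM (SD, n = 8) against 49.9 ± 2.97, with a 95% CI of −0.19 to 0.08 for the log2 difference. Angpt2 averaged 64.6 ± 9.32 CPM against 60.3 ± 5.84, 4 of the 8 TgNotch3R169C libraries being above the highest non-Tg library (95% CI −0.08 to 0.28). The receptor transcripts were all slightly higher without passing the test: Tek by 0.15 (95% CI −0.05 to 0.35), Ptprb by 0.11 (−0.10 to 0.33) and Tie1 by 0.10 (−0.05 to 0.25) on the log2 scale. The endothelial list lay higher alike, with 11 of 12 markers above 0, a median of 0.10 and no call. Without the 8 libraries, Tek was at 0.051, Ptprb at 0.015 and Tie1 at 0.064. Angptl4 averaged 22.6 ± 7.81 CPM against 19.99 ± 8.85, and Angptl1 8.86 ± 3.64 CPM against 9.45 ± 3.03.

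**Figure D2:**
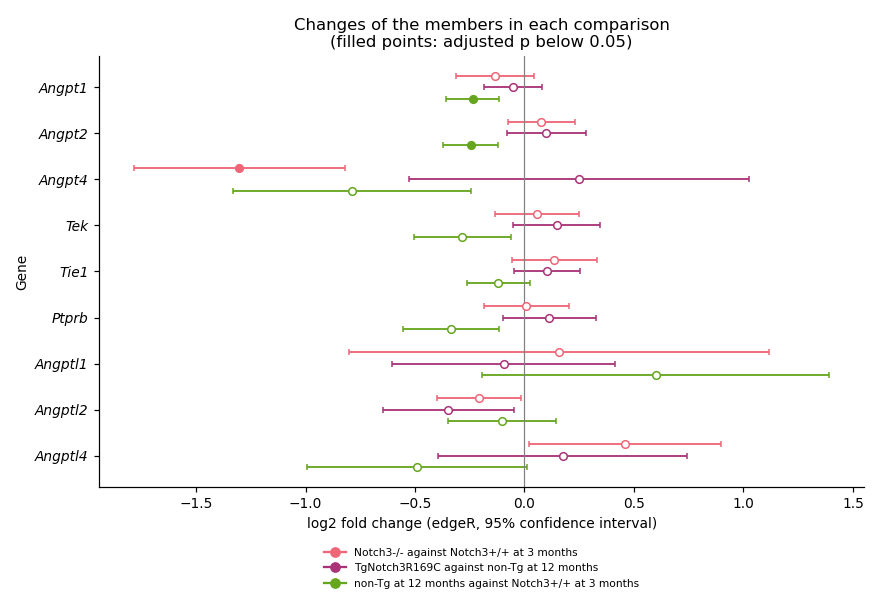
Log2 fold change of each member in the 3 comparisons of groups, as points with 95% confidence intervals from edgeR, and filled points had an adjusted p below 0.05. Angpt4 in Notch3-/- arteries (−1.30) and Angpt1 and Angpt2 between the control groups (−0.24 and −0.25) are the filled points, and all TgNotch3R169C intervals except that of Angptl2 include 0.

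The changes of both mutants were compared directly in a fit of all 4 groups. For Angpt4, the TgNotch3R169C change minus the Notch3-/- change was 1.55 on the log2 scale (SE 0.441, 95% CI 0.65 to 2.45, edgeR, unadjusted p = 0.00139, adjusted p = 0.151). It did not pass over all genes, and it was 1.04 without TgNotch3R169C replicate 7. In this contrast 0 of the 9 members were called (edgeR, with 0 also by DESeq2), against 0.35% of 18555 genes, also without the 8 libraries. At an unadjusted p under 0.05 there was 1, Angpt4, against 8.62%. The lowest Angpt4 level of the series, 0.482 CPM, was in a Notch3-/- library, and 4 libraries of the 12-month groups also lay below the Notch3-/- mean of 0.782 CPM. Among the smooth muscle markers, the contrast called Myh11, at 0.75.

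Between the control groups, which differed in age and in mouse line, 2 of the 9 members were called, both ligands and both lower at 12 months, against 7.92% of the 17643 genes tested, or 4.05% in the lower direction. At an unadjusted p under 0.05 there were 5 of the 9, against 24.2%. Angpt1 averaged 49.9 ± 2.97 CPM (SD, n = 8) in non-Tg mice at 12 months and 58.7 ± 5.66 CPM in Notch3+/+ mice at 3 months. Of the older libraries, 7 were below the lowest younger library (log2 difference −0.24, SE 0.0575, 95% CI −0.36 to −0.11, edgeR, adjusted p = 0.0198). Angpt2 averaged 60.3 ± 5.84 against 71.3 ± 4.76 CPM, with 4 older libraries below the lowest younger one, and the difference was −0.25 (SE 0.0594, 95% CI −0.37 to −0.12, edgeR, adjusted p = 0.0191). Age and line cannot be told apart. Without the 8 libraries, 5 of them in these groups, no member was called and the values were −0.18 for Angpt1 and −0.22 for Angpt2. Neither ligand was called with the endothelial, smooth muscle or choroid plexus list as a covariate, where the values were −0.19, −0.24 and −0.20 for Angpt1, and −0.17, −0.067 and −0.22 for Angpt2. Those covariates called 396, 0 and 293 of the 17643 genes, against 1398 without a covariate, so few or no genes of any kind passed there. Angpt1 and Angpt2 also missed the threshold in the fit of all 4 groups, which called Ptprb instead. The choroid plexus sum had a median of 4703 CPM in the older and 248 CPM in the younger group.

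The endothelial members had lower means at 12 months without passing the test in the pairwise fit. Ptprb averaged 765 ± 127 CPM against 963 ± 128 (SD, n = 8), different by −0.34 (SE 0.103, edgeR, adjusted p = 0.0544), and was called in the fit of all 4 groups (edgeR, adjusted p = 0.0330) and by DESeq2 (adjusted p = 0.0230). Tek was at 119 ± 19.0 against 145 ± 21.6 CPM (−0.28, SE 0.105, edgeR, adjusted p = 0.104), and Tie1 at 139 ± 12.5 against 151 ± 15.5 CPM (−0.12). The endothelial list had a median of −0.15 with 1 of 12 called, Pecam1, the junctional adhesion molecule, at −0.52. Angpt4 was at 1.14 ± 0.421 against 1.94 ± 0.751 CPM, and all 8 older libraries were below the mean of the younger ones (−0.79, SE 0.257, edgeR, adjusted p = 0.0679, and called by DESeq2, adjusted p = 0.0276). Leaving out the 8 libraries rich in choroid plexus or pituitary markers gave −0.23 for Ptprb (edgeR, adjusted p = 0.293) and −0.48 for Angpt4 (edgeR, adjusted p = 0.409). Tek was then at −0.16 and Tie1 at −0.054, and no member was called. The smooth muscle list was called lower in 8 of 8, with a median of −0.78, and with it as a covariate the Angpt4 value was 0.65. Angptl4 was at 19.99 ± 8.85 against 28.1 ± 6.02 CPM (−0.49, edgeR, adjusted p = 0.215), Angptl2 differed by −0.10 and Angptl1 by 0.60.

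Ratios between members were computed within each library, where the scaling of libraries has no part. Of 15 ratio comparisons, 1 passed: Angpt4 to Angpt1 was lower in Notch3-/- arteries by 1.12 on the log2 scale, 8 of 8 libraries being below the control mean (two-sided exact permutation test over 12870 divisions, p = 0.0001554, the smallest it can give, adjusted p = 0.00233). The Angpt2 to Angpt1 ratio, the balance between the context-dependent and the activating ligand, was higher by 0.21 in Notch3-/- arteries (0.50 ± 0.195 against 0.28 ± 0.116, SD, n = 8, exact permutation p = 0.0185, adjusted p = 0.0880). In TgNotch3R169C arteries it was higher by 0.15 (0.42 ± 0.152 against 0.27 ± 0.0987, exact permutation p = 0.0333, adjusted p = 0.0998). In each mutant 7 of 8 libraries were above the control mean, and neither passed the adjustment over the 15 tests. Between the control groups the ratio differed by −0.02 (exact permutation p = 0.762), both ligands being lower by like amounts.

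**Figure D3:**
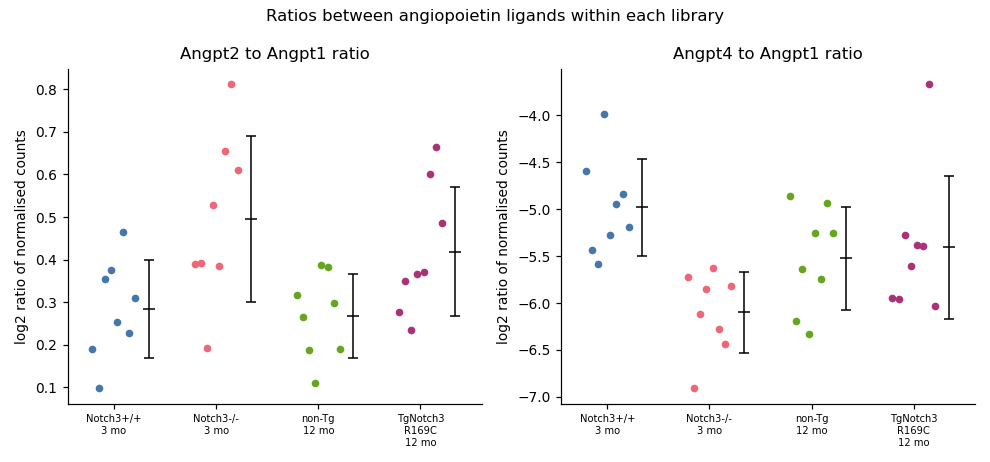
Log2 ratio of Angpt2 to Angpt1 (left) and of Angpt4 to Angpt1 (right) in each library, from normalised counts, where points are libraries and bars the mean with SD (n = 8). The Notch3-/- points of the right panel lie below those of Notch3+/+ mice, and in the left panel 7 of 8 points of each mutant are above the mean of their controls.

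None of the ratios among the receptor-side genes passed. Tie1 to Tek was 0.23 ± 0.123 on the log2 scale in non-Tg arteries and 0.06 ± 0.142 in Notch3+/+ arteries (SD, n = 8, exact permutation p = 0.0235, adjusted p = 0.0880), with 7 of 8 older libraries above the younger mean. Tek against the mean of 12 endothelial markers was lower by 0.16 in the older controls (exact permutation p = 0.0222, adjusted p = 0.0880), 8 of 8 libraries lying below the younger mean. In Notch3-/- arteries the same ratio differed by −0.02 and in TgNotch3R169C arteries by 0.04, and Ptprb to Tek differed by −0.05 and −0.03. Tie1 to Tek differed by 0.06 in Notch3-/- arteries (exact permutation p = 0.364) and by −0.06 in TgNotch3R169C arteries (exact permutation p = 0.247, adjusted p = 0.427), where 8 of 8 libraries were below the control mean.

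Of 20 listed genes around the Tie receptors, both effectors and extracellular partners, 0 were called in Notch3-/- and 0 in TgNotch3R169C arteries (edgeR). Over all genes tested, 0.649% and 0.113% were called. At an unadjusted p under 0.05 there were 1 and 2 of the 20, against 7.69% and 7.27%. The list held adaptors such as Grb2 and Shc1, the kinase genes Pik3ca and Akt1, the transcription factor gene Foxo1, which angiopoietin signaling restrains, and Svep1, an extracellular ligand of TIE1. Foxo1 was at 0.03 and 0.06 on the log2 scale in the mutants, and Nos3, endothelial nitric oxide synthase, at 0.07 and 0.28. Between the control groups 4 of the 20 were called, against 7.92% of the 17643 genes tested. Calls over all genes there fell from 1398 to 236 without the 8 libraries, and this list was not examined in that setting. Itgb1 and Itga5, integrin subunits that also bind angiopoietins, were lower by −0.41 and −0.34, and Shc1 by −0.17, whereas the adaptor gene Grb14 was higher by 0.89.

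Of 14 genes of the VEGF and PDGF systems, none was called in either mutant. Between the control groups, where 7.92% of all genes tested were called, Vegfb was called at 0.26. Of other angiopoietin-like genes, Angptl7 averaged 8.92 to 11.8 CPM in the 4 groups and Angptl6 2.15 to 2.37, and neither was called. Angptl8 was not tested. Around lipoprotein lipase, the enzyme that ANGPTL4 inhibits, none of the 4 genes tested was called. Lipg, endothelial lipase, was at 0.991 ± 0.232 CPM in Notch3-/- and 1.84 ± 0.655 in Notch3+/+ arteries (SD, n = 8, log2 fold change −0.89, edgeR, adjusted p = 0.0809). Of 10 target genes of PPAR receptors, which also drive Angptl4, none was called in the mutants, and Fabp4 was among those called between the control groups, at −0.89. Listed hypoxia (11 genes) and glucocorticoid (7 genes) targets, which share known inputs with Angptl4, gave no call in either mutant, and Bnip3 was called between the control groups at 0.22.

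After each group's mean was taken away, the endothelial members varied together across the 32 libraries. Pearson's r of log2 CPM was 0.91 for Tek and Ptprb, 0.86 for Tie1 and Ptprb and 0.80 for Tek and Tie1. Each also followed the mean of the 12 endothelial markers, at 0.88 for Tek, 0.87 for Tie1 and 0.85 for Ptprb. These values share libraries and depth and are given as a description. Among 18554 other genes, those most like Tek were Ptprb, Erg and Mecom, those most like Tie1 were Mmrn2 (0.93), Rasip1 and Icam2, and those most like Ptprb were Mmrn2 (0.92), Tek and Rgs3.

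Angpt1 and Angpt2 did not follow the receptors. They had an r of 0.59 with each other and between −0.09 and 0.19 with Tek. Both followed the fibroblast list more than the endothelial one (0.53 and 0.58 against 0.05 and 0.24). Tek, Tie1 and Ptprb had 0.33, 0.40 and 0.39 with the fibroblast list. Angpt4 had 0.26 with Tek, 0.13 with Tie1 and 0.28 with Ptprb. The genes most like Angpt1 were Eya1 (0.81), Pard6g and Robo1, and those most like Angpt2 were Adamts12 (0.74), Adamts9 and Mmp14. Angpt4 had an r of 0.50 with the smooth muscle list, where Ptprb, Tek and Tie1 had 0.55, 0.50 and 0.48, and Apol6 (0.73), the myosin light chain kinase gene Mylk (0.66) and Aspn (0.66) were most like it. Angptl1 was most like Dpt (0.93), the gene of a matrix protein, Cilp and Hoxa3. Angptl2 was most like Tpst1 (0.79), Vasn and Nid2, and Angptl4 most like Lipe (0.75), Lgals4 and Il1r1.

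**Figure D4:**
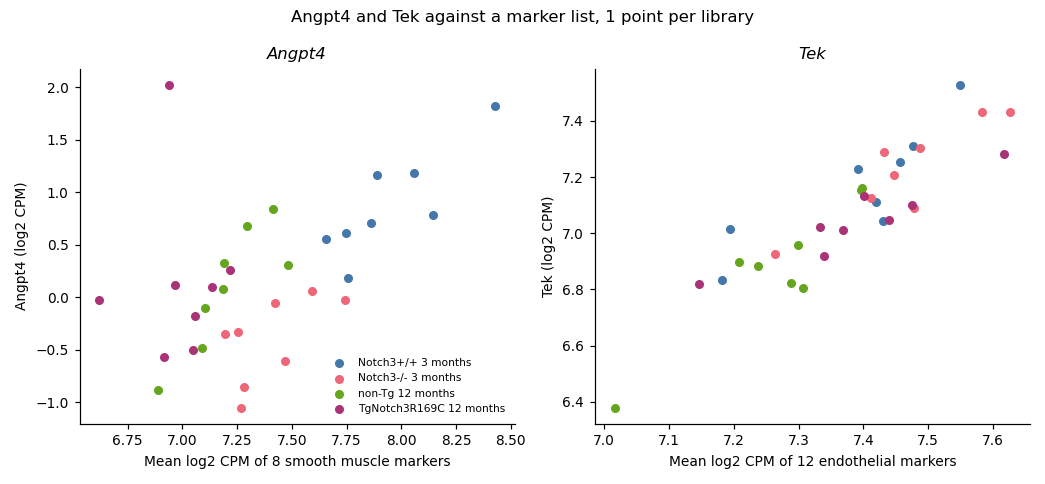
Log2 CPM of Angpt4 against the mean log2 CPM of 8 smooth muscle markers (left), and of Tek against that of 12 endothelial markers (right). Each point is 1 library, coloured by group. All Notch3-/- points lie below the Notch3+/+ points for Angpt4 at left, where TgNotch3R169C replicate 7 stands apart at the top. On the marker axis they tend to be lower, although the marker sums overlapped (1666 to 2520 against 2420 to 4238 CPM). The Tek points follow the endothelial mean in all groups.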

How the data were processed

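Brain arteries were dissected and frozen, and RNA was sequenced with a stranded poly(A) kit. Raw read counts per Ensembl gene were deposited by the authors as whole numbers, without normalization. The submitters' processing notes list cutadapt 1.10, Bowtie2 2.2.8, STAR 2.5.3a, HTSeq 0.6.1p1 and build mm39. The annotation release and the strand setting of the counting are not given in the sources used here. Exon lengths and overlaps came from GENCODE vM21, on an older build, matched by identifier. There, 14.2% of the Angpt1 exons and 16.4% of the Angptl1 exons lie opposite another transcript, whose reads would be shared if strand was ignored.

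Filtering (filterByExpr), TMM scaling and the quasi-likelihood test came from edgeR 4.0.16, with limma 3.58.1 for voom, under R 4.3.3, 2 groups at a time, whereas the study used DESeq2. The contrast of both changes used all 4 groups. A gene was called at an adjusted p (Benjamini-Hochberg over all genes tested) below 0.05, and all 9 members passed the filter in each fit. CPM used TMM-scaled library sizes. Ratios used a prior of 0.5 counts and exact permutation tests, adjusted over 15 tests. DESeq2 1.42.0 and other settings were alternatives, and the code was tested on simulated data. Members, lists and tests were chosen with earlier results of these data known. Named genes were the members, the called genes of each list (at most 5 by p, where Lmod1, outside the first 5, and uncalled genes such as Lipg, Nos3 and Foxo1 were named after their values were seen), and the 3 genes most like each member. Some results for listed genes are not reported here. Nothing in the labels shows how mice were processed in batches. Libraries of a group differed by 10.9 to 147.9 times the counting noise (chi-square per gene, 112 pairs), so none was a duplicate. Depth of 20289487 to 54481934 counts leaves Angpt4 with as few as 17 reads.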

Additional observations from a re-analysis of the deposited data

Results flagged for a closer look

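A sample far from the others of its group was looked for in 56 sets of 8 values (9 members and 5 ratios in 4 groups), as the gap to the nearest other sample divided by the range of the group, and 5 sets passed the limit. Chance flags about 1 in 20 groups, which is 2.8 of 56. For Angpt4, TgNotch3R169C replicate 7 stood apart at 4.07 CPM with a gap of 0.845 of the range, and at 0.682 of the range in the Angpt4 to Angpt1 ratio. In Notch3+/+ arteries, Angpt4 of replicate 4 was at 3.54 CPM, a gap of 0.527 of the range. Angptl2 of TgNotch3R169C replicate 8 was at 213 CPM, a gap of 0.634, and Angptl1 of non-Tg replicate 5 was at 16.2 CPM, a gap of 0.611, and both of these libraries were rich in choroid plexus markers. Their part in these values was not tested.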

How the results depend on the processing

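Angpt4 in Notch3-/- arteries was called by edgeR under every alternative run but 1, at log2 fold changes of −1.38 to −1.12 when single libraries were left out, and the exception was the smooth muscle covariate, with 0 members called and −0.45. Over all genes that covariate called 16, against 115 in the main fit. No member of the TgNotch3R169C comparison or of the contrast of both changes was called under any alternative. Between the control groups, the count of 2 members (Angpt1, Angpt2) became 4 with DESeq2 and at a threshold of 0.1 (Angpt4 and Ptprb added), 1 in the fit of all 4 groups (Ptprb), and 0 with the endothelial, smooth muscle or choroid plexus covariate (Angpt1 at −0.24 to −0.19, Angpt2 at −0.22 to −0.067), at a threshold of 0.01, and, chosen after seeing the data, without the 8 libraries rich in choroid plexus or pituitary markers. Leaving out single libraries gave 2 to 4. Over all genes, the endothelial, smooth muscle and choroid plexus covariates called 396, 0 and 293, against 1398 in the main fit. The cause was not tested. Nothing in the labels shows whether equal replicate numbers pair the mice, and this was not settled here. The correlation of same-numbered deviations ran from −0.224 to 0.418, and 3 or 4 of 8 pairs exceeded 0.1, without a comparison to pairs of unequal number. With the replicate block, 1 member (Ptprb) was called between the control groups, 1 (Angpt4, −1.27) in Notch3-/- and 0 in TgNotch3R169C arteries.

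Of 1215 values of member fold changes, 42 had another sign than the main value, none of them called. In Notch3-/- arteries the endothelial covariate gave −0.045 for Angptl1, −0.049 for Tek and −0.11 for Ptprb, the smooth muscle covariate −0.46 for Angptl1 and 0.042 for Angptl2, and leaving out the 8 libraries −0.0074 for Angptl1, and Ptprb ran from −0.031 to 0.055 without single libraries. In TgNotch3R169C arteries the endothelial covariate gave −0.057 for Angpt4, −0.017 for Tek, −0.032 for Tie1 and −0.041 for Ptprb, the smooth muscle covariate 0.15 and the neuron covariate 0.081 for Angptl1, and the choroid plexus covariate −0.019 for Angpt4. Without single libraries Angpt4 ran from −0.26 to 0.38 and Angptl1 from −0.22 to 0.057. Between the control groups the smooth muscle covariate gave 0.65 for Angpt4, −0.081 for Angptl1, 0.19 for Angptl2, 0.049 for Tek and 0.065 for Tie1, and the endothelial covariate 0.0056 for Tie1. In the contrast of both changes the smooth muscle covariate gave −0.043 for Angpt2, −0.054 for Tek and −0.056 for Ptprb, the neuron covariate 0.0039 for Tie1, the choroid plexus covariate −0.0082 for Angpt2, and leaving out the 8 libraries 0.014 for Angptl4 and −0.023 for Tek. Without single libraries Angpt2 ran from −0.033 to 0.058 and Tie1 from −0.080 to 0.013.

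Of 285 ratio values, 9 changed sign. Angpt4 to Angpt1 in TgNotch3R169C arteries was −0.055 as a difference of medians, −0.14 without the 8 libraries and −0.13 to 0.21 without single libraries. Without the 8 libraries, Tie1 to Tek was 0.0057 and Tek to the endothelial mean −0.051 in TgNotch3R169C arteries. Angpt2 to Angpt1 was then 0.19 in Notch3-/- and 0.17 in TgNotch3R169C arteries (exact permutation, adjusted p = 0.398 and 0.580). Between the control groups, Tie1 to Tek was then 0.10 and Tek to the endothelial mean −0.084 (exact permutation, adjusted p = 0.580 for both). Without single libraries, Tek to the endothelial mean ran from −0.042 to 0.010 in Notch3-/- arteries, Angpt2 to Angpt1 from −0.043 to 0.0091 between the control groups, and Angpt2 to Angpt1 from 0.17 to 0.25 in Notch3-/- arteries, where it passed (exact permutation, adjusted p = 0.0245) without Notch3-/- replicate 3. Over all genes, DESeq2 called 280, 74, 2365 and 153 where edgeR called 115, 20, 1398 and 65, and leaving out the 8 libraries gave 96, 2, 236 and 28 (Notch3-/-, TgNotch3R169C, control groups, contrast). Low counts limit Angpt4.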
